A study of Sus scrofa with 10 samples.

Results

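Molecular chaperones and protein folding enzymes were examined in the liver of 10 backcross female pigs. The set was defined by gene symbol, as the genes named HSPA, HSPB, HSP90, HSPD, HSPE, HSPH, DNAJ, PDIA or CCT with their number or letter, together with P4HB, CALR, CANX, XBP1 and HYOU1. Of 57 genes that a single platform symbol placed in the set, 50 had at least 1 probe set with a mean log2 value of at least 4 over the 10 arrays, among 4730 genes tested in all. By the known place of the protein, 28 of the 50 were classed as cytosolic, 14 belonged to the endoplasmic reticulum (ER) and 6 to mitochondria. The cytosolic class also took in J proteins found mainly in the nucleus, such as DNAJC8 and DNAJC17. XBP1, a transcription factor of the unfolded protein response, and HSPB11, which carries the symbol of a small heat shock protein but belongs to the intraflagellar transport machinery, stood outside these classes.

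The 7 genes below the limit were HSPA2, HSPA12A, HSPB3, HSPB6, HSPBP1, DNAJA4 and DNAJC6, all of them cytosolic. HSPBP1 lay just outside the limit, with a mean of 3.81, and DNAJC9 just inside it, with 5.14. P4HB, PDIA2, PDIA5 and HSPA1A had no probe set with that symbol alone, so the main ER disulfide isomerase and the classical inducible Hsp70 are not analysed here. A gene was given the mean of its probe sets that passed the limit. 33 of the 50 genes rested on 1 probe set and 17 on several. The probe sets of a gene often disagreed over the animals. Of 26 probe sets beside the brightest of the same gene, 7 had an r of at least 0.7 with it. Another 9 had an r below 0, and the median was 0.20.

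All animals were females of a backcross of Iberian with Landrace pigs, in which Landrace is the larger share, kept under the same management. The 5 high (H) animals had more polyunsaturated fatty acids in the longissimus dorsi muscle, whereas the 5 low (L) animals had more saturated and monounsaturated ones; the groups were the extremes of a principal component of these traits. Animals of a group were not full sibs, but some sib pairs lie across the groups, and which animals they are is not given in the labels. Each animal gave 1 liver RNA sample and 1 Affymetrix GeneChip Porcine array, so the replicate was the animal and the number of arrays limits the precision.

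Chaperones bind unfolded stretches of protein and let them fold or refold. Hsp70 proteins work in cycles that are started by J proteins (DNAJ) and reset by nucleotide exchange factors such as the Hsp110 proteins, while the ring-shaped chaperonins CCT and Hsp60 enclose a client. Hepatocytes secrete most plasma proteins, and their ER therefore carries much BiP (HSPA5), GRP94 (HSP90B1), calreticulin, calnexin and protein disulfide isomerases. The stress-induced members of the family are switched on by heat shock factor in the cytosol and by XBP1, ATF6 and ATF4 in the ER.

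The labelled tissue showed the markers of liver, since 7 of 7 hepatocyte genes were measured, and their summed level lay between 17.65 and 17.82 (log2) in H and between 17.72 and 17.82 in L. Of the markers of other cells, 5 of 8 Kupffer cell genes, 2 of 6 endothelial, 3 of 6 stellate cell, 2 of 4 bile duct, 1 of 4 B and plasma cell, 0 of 4 T and NK cell and 1 of 3 erythroid genes were measured. None of these marker genes passed an unadjusted p of 0.05 between the groups (limma). The summed Kupffer cell level was 11.78 to 12.42 in H and 11.92 to 12.49 in L, and the part of these cells in the results was not tested. In bulk liver, fewer cells of a type and less RNA per cell cannot be told apart. The array medians lay between 3.78 and 3.85.

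None of the 50 chaperone and folding genes passed the test between H and L. With limma and Benjamini-Hochberg adjustment over all 4730 genes, 0 of 50 members passed 0.05, the smallest adjusted p being 0.985, and 0% of all genes were called. At an unadjusted p of 0.05, 0 of 50 members were called, against 125 of 4730 genes (2.64%). At the level of probe sets, 0 of 76 passed the adjusted threshold (0% of all 11756), and 3 of 76 an unadjusted one, against 363 of 11756. The H and L values of no member were fully apart, whereas 0.359% of all genes had groups that did not overlap. By the exact permutation test over all splits of the animals into 5 and 5, 2 members were below an unadjusted 0.05, HSPA4 (p = 0.0397) and HSPA8 (p = 0.0476), and 2.98% of all genes were below it by the same test.

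The medians of the 3 classes lay close together. Of the cytosolic members 11 were higher and 17 lower in H, with a median difference (H minus L) of -0.06 on the log2 scale. For the ER members these counts were 5 and 9, with a median of -0.07, and for the mitochondrial members 4 and 2, with a median of 0.02. Over all genes 1758 were higher and 2972 lower in H, with a median of -0.04, so the values of the set lay near the shift of all genes. Of the 50 members, 43 differed by less than 0.2 (log2) between the group means, as did 3787 of all 4730 genes.

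**Figure D1:**
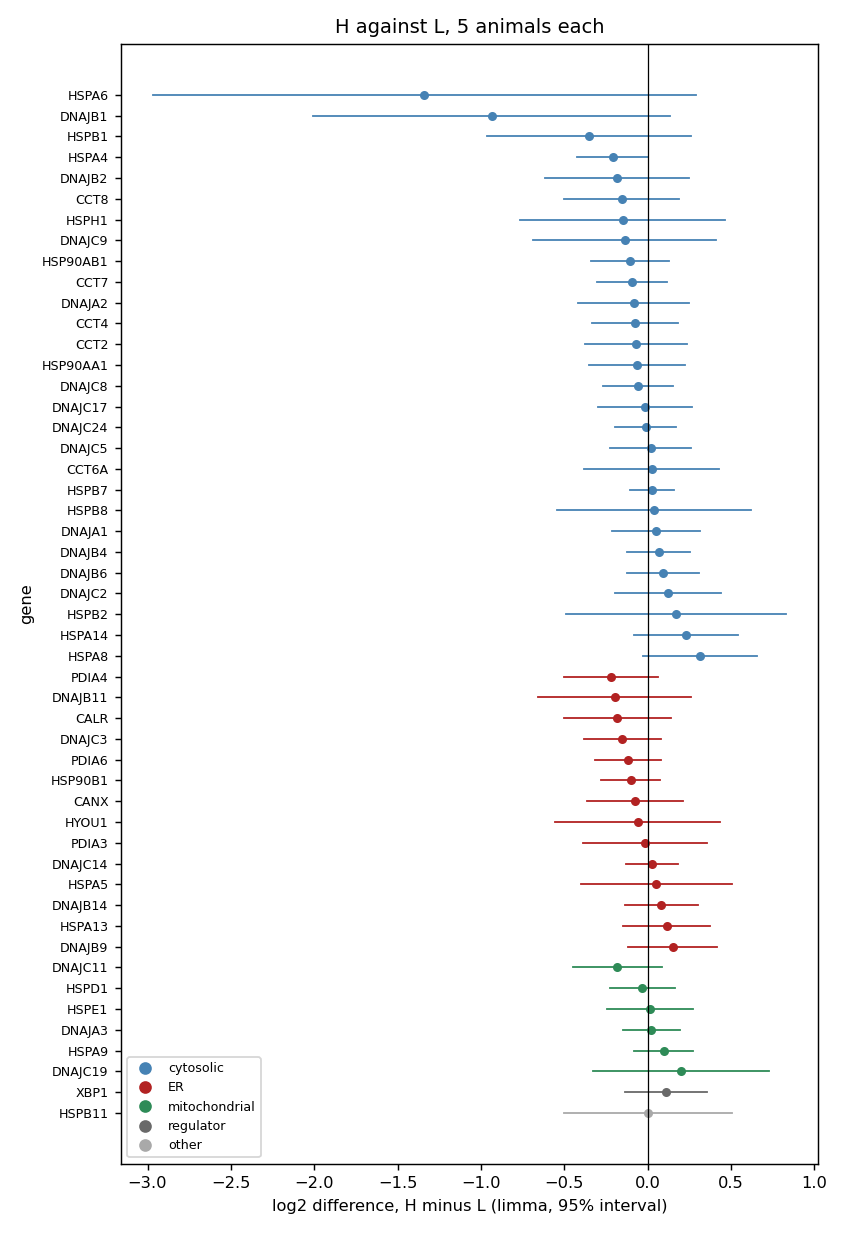
Log2 difference H minus L (x axis) of each of the 50 genes (y axis), with limma's 95% interval, 5 animals a group, coloured by class and sorted within it. Every interval includes 0; HSPA6 and DNAJB1 have the largest differences and the widest intervals.

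The values also spread over the animals. This spread can hold differences of animal, RNA sample and array, which cannot be told apart, since no animal had a repeat array. In the cytosolic class the median SD over the 10 animals was 0.225 (log2), in the ER class 0.199 and in the mitochondrial class 0.143, with 0.223 over all genes tested. The 4 members with the largest spread were HSPA6, DNAJB1, HSPB2 and HSPB1, all of them cytosolic. HSPA6 ranked 22 of 4730 by SD and DNAJB1 ranked 74.

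**Figure D2:**
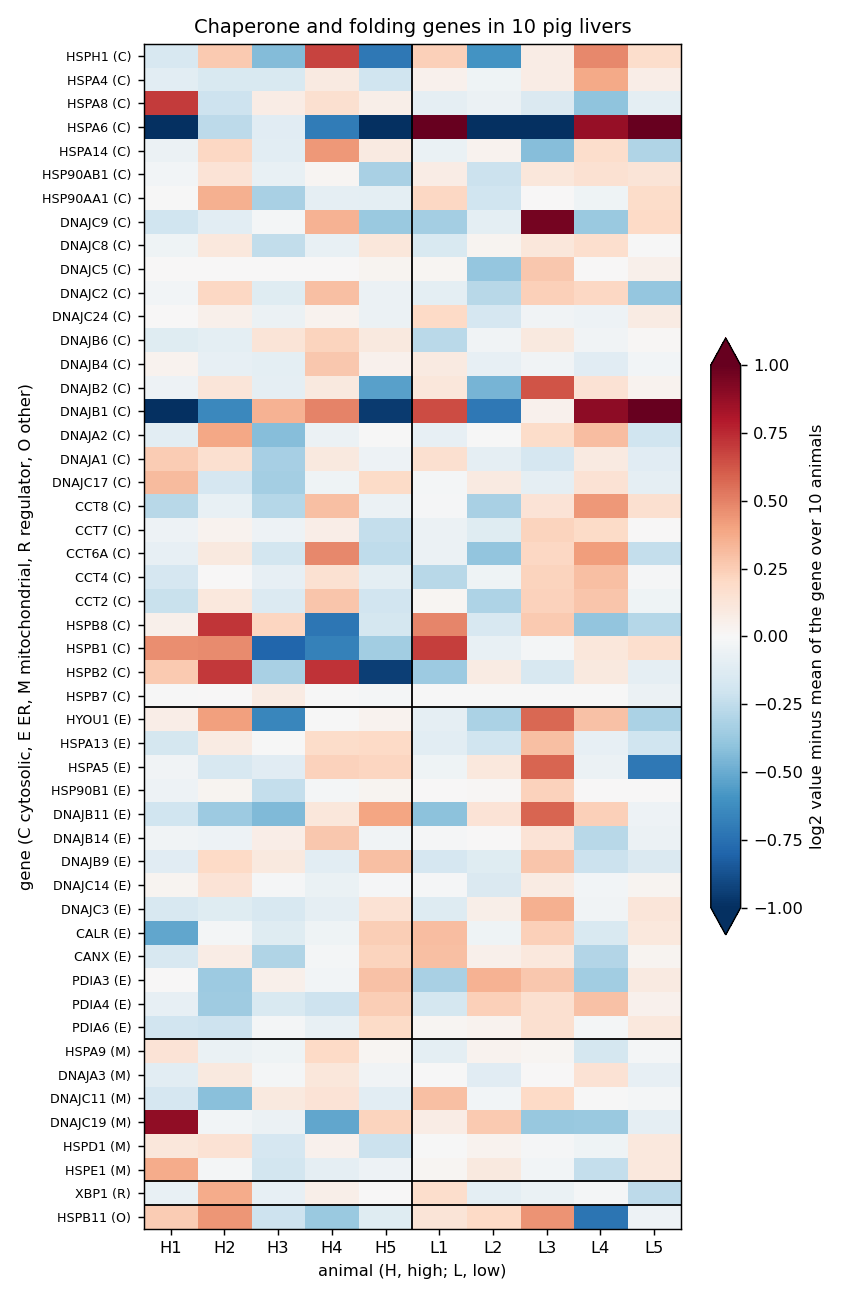
Log2 value of each of the 50 genes minus its own mean over the 10 animals (colour, limited to 1 in either direction), with genes in rows by class and role and animals in columns. HSPA6 and DNAJB1 show the strongest colours, the 5 CCT rows change together from animal to animal, and most mitochondrial rows are pale.

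HSPA6, the Hsp70 gene that is nearly silent until heat shock factor is active, was high in a few L animals. Its log2 values were 4.63, 5.50, 5.65, 5.07 and 4.63 in H1 to H5, and 7.52, 4.74, 4.56, 6.64 and 8.73 in L1 to L5. Thus L5, L1 and L4 were above every H animal, whereas L3 was the lowest of all 10, and the highest and lowest animals lay 4.17 apart. H1 and H5 had the same value (4.63), and L2 and L3 lay near it, so these readings may sit at the floor of the probe set. The range, the SD in H and the low place of L3 could then be set in part by that floor. The means were 5.10 ± 0.48 in H and 6.44 ± 1.79 in L (SD, n = 5), a difference of -1.34 with a standard error of 0.73 (limma, unadjusted p = 0.0971, adjusted p = 0.985). Without L5 the difference was -0.77 and without L3 it was -1.81, with an unadjusted p of 0.0257 (limma), so single animals decided its size.

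DNAJB1, the inducible Hsp40 that starts the Hsp70 cycle, followed the same animals in part. It measured 6.97, 7.92, 8.91, 9.05 and 7.60 in H1 to H5, and 9.21, 7.84, 8.60, 9.46 and 10.03 in L1 to L5. The same 3 L animals, L5, L4 and L1, were above all H animals, H1 was lowest, and H3 and H4 lay among the L animals. The difference was -0.94 with a standard error of 0.48 (limma, unadjusted p = 0.0806, adjusted p = 0.985), and it ran from -1.23 without L2 to -0.66 without H1. Over the 10 animals HSPA6 and DNAJB1 were correlated (Pearson r = 0.79, permutation p = 0.00453; Spearman rho = 0.81, p = 0.00599), and r was 0.68 without L1 and L5 and 0.72 with the groups centred. With adjustment over all 1225 pairs of members the Pearson p was 0.269.

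The immediate early genes FOS and JUN, looked at after their values were seen, had an r of 0.91 and 0.85 with DNAJB1 and of 0.74 and 0.54 with HSPA6. FOS was highest in L5 (12.50) and lowest in H5 (7.75).

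Not every inducible gene of the cytosol shared this pattern. HSPB1, the small heat shock protein Hsp27, measured 9.15, 9.16, 7.89, 8.00 and 8.33 in H1 to H5, and 9.37, 8.60, 8.66, 8.80 and 8.85 in L1 to L5. H3, H4 and H5 were below all L animals, while H1 and H2 were above all L animals but L1, so the groups overlapped (difference -0.35, standard error 0.28, unadjusted p = 0.230, limma). Its r with DNAJB1 was -0.11 and with HSPA6 0.35. HSPB1 moved instead with HSP90AA1, the inducible cytosolic Hsp90 (r = 0.79, permutation p = 0.00673, adjusted over the 1225 pairs 0.330). It ran against the J protein DNAJB6 (r = -0.91, permutation p = 0.00019, adjusted 0.116, rho = -0.89). The values of both partners are means of probe sets that disagreed. The dimmer DNAJB6 probe sets had an r of -0.79 and 0.82 with the brightest. Those of HSP90AA1 had 0.71, 0.21, 0.83 and -0.86.

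A measure of RNA quality is given beside these 3 genes. The GAPDH 3' minus 5' signal, which rises when RNA is degraded, averaged 1.96 ± 0.28 for H animals and 1.99 ± 0.42 for L animals (SD, n = 5, exact permutation p = 0.897), and was highest in L1 (2.70). Its r was 0.76 with HSPB1, 0.79 with HSP90AA1 and -0.80 with DNAJB6 (permutation p adjusted over the 50 members 0.115, 0.0935 and 0.0935). Spearman's rho was 0.81, 0.82 and -0.64, and r without the 2 animals farthest on the measure was 0.61, 0.67 and -0.48 in this order; its part in their values was not tested. Of the 50 relations of members with this measure, 7 passed an unadjusted permutation p of 0.05 and 0 an adjusted one (Pearson), while 10% of all genes passed the unadjusted one. DNAJC24, a J protein of diphthamide synthesis, had the largest (r = 0.85, adjusted p = 0.0565; rho = 0.90, adjusted p = 0.038). After the quality measure was regressed out, r was -0.78 between HSPB1 and DNAJB6, 0.47 between HSPB1 and HSP90AA1 and 0.85 between HSPA6 and DNAJB1.

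HSPB2, a small heat shock protein best known from muscle, had a larger spread in H than in L. It measured 8.31, 8.76, 7.73, 8.78 and 7.11 in H1 to H5 and 7.69, 8.14, 7.89, 8.15 and 7.96 in L1 to L5. H4, H2 and H1 were above, and H5 below, every L animal, and the means were 8.14 ± 0.72 in H and 7.97 ± 0.19 in L (SD, n = 5, difference 0.17, standard error 0.30, unadjusted p = 0.580, limma). In the RefSeq gene order of Sscrofa11.1 its neighbour is CRYAB, the alphaB-crystallin gene, and both went together over the animals (r = 0.90, rho = 0.90; 0.84 without the 2 animals farthest from the HSPB2 median). CRYAB itself ran from 8.14 in H5 to 9.75 in H4. The remaining small heat shock genes were HSPB8, between 8.11 and 9.55, and HSPB7, whose value was within 0.01 of a single level on 7 of the 10 arrays and so carried little information.

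**Figure D3:**
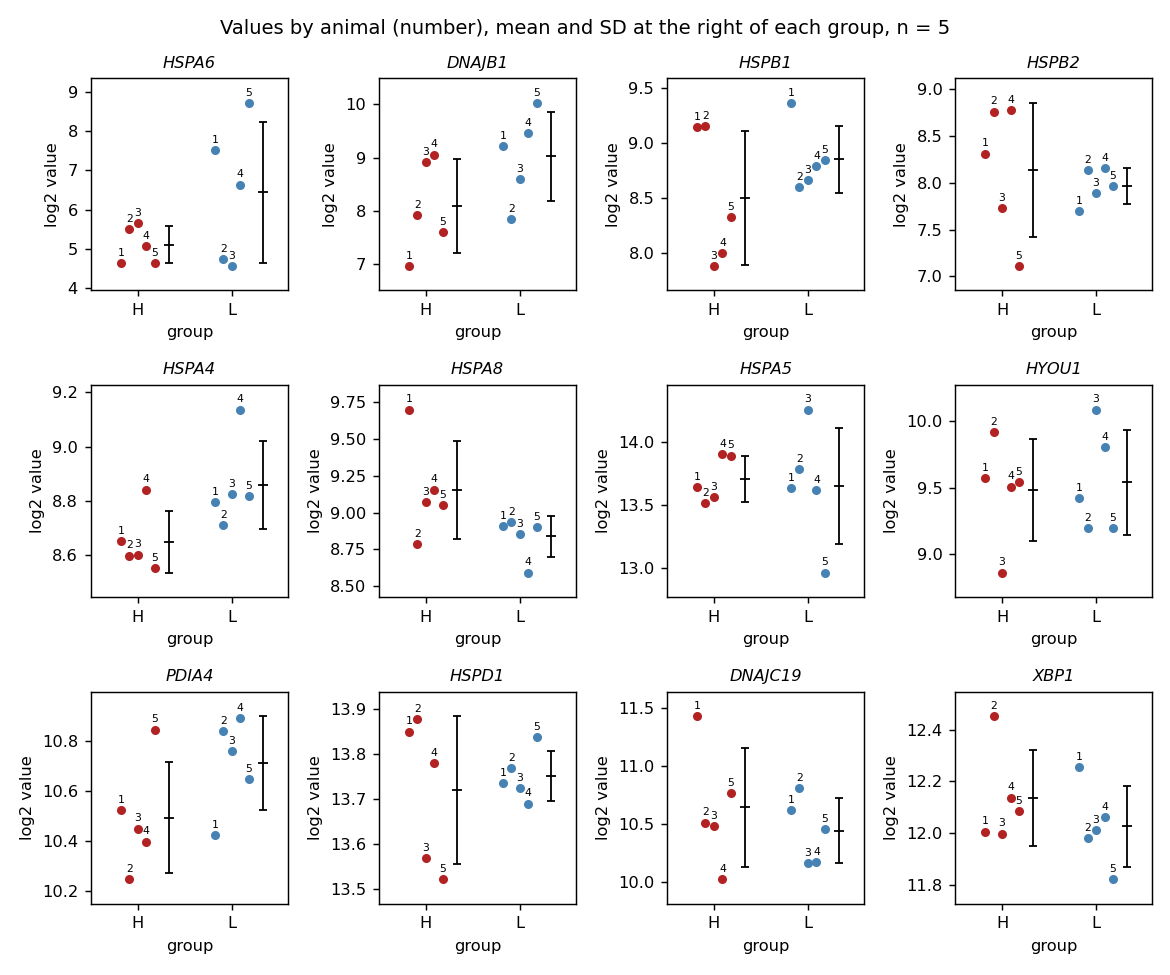
Log2 value (y axis, its own range in each panel) of 12 genes in each animal, numbered 1 to 5 within H and L, with the group mean and SD beside the points (n = 5). L1, L4 and L5 stand above all H animals for HSPA6 and DNAJB1, and the groups overlap in every panel.

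Of the constitutive cytosolic machinery, HSPA4 and HSPA8 had the smallest p. HSPA4, an Hsp110-type exchange factor, measured 8.65, 8.60, 8.60, 8.84 and 8.55 in H1 to H5 and 8.80, 8.71, 8.83, 9.14 and 8.82 in L1 to L5. H4 was the only H animal within the range of L, and the means were 8.65 ± 0.11 and 8.86 ± 0.16 (SD, n = 5). The difference was -0.21 with a standard error of 0.10 (limma, unadjusted p = 0.0547, adjusted p = 0.985). Its 2 probe sets gave -0.28 and -0.13, and their r with each other was 0.14, so the gene value joins signals that differ between animals.

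HSPA8, the constitutive Hsc70, was measured by 3 probe sets that disagreed. Their mean was 9.70, 8.79, 9.07, 9.16 and 9.05 in H1 to H5 and 8.91, 8.94, 8.85, 8.59 and 8.90 in L1 to L5, with 4 H animals above all L animals and a difference of 0.32 with a standard error of 0.15 (limma, unadjusted p = 0.0663, adjusted p = 0.985). Without H1 the difference was 0.18. The brightest probe set, with a mean of 13.15, gave a difference of -0.01, and its r with the dimmer ones, at 7.23 and 6.60, was -0.50 and -0.54.

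The brightest HSPA8 probe set read 12.91, 13.25, 13.01, 13.87 and 12.71 in H1 to H5 and 13.13, 12.82, 13.32, 13.39 and 13.12 in L1 to L5. It was highest in H4 and lowest in H5, as HSPH1 was. Its r was 0.93 with DNAJA1 (permutation p = 0.00013), 0.89 with HSPH1 (p = 0.00027), 0.89 with CCT2 (p = 0.00011) and 0.88 with CCT6A (p = 0.00038). In this setting, added after seeing the data, the partners were also given their brightest probe set. For DNAJA1 the dimmer probe set had an r of -0.09 with the brightest. Over the 147 relations of this setting, these 4 had adjusted p of 0.00956 (DNAJA1 and CCT2), 0.0132 (HSPH1) and 0.0140 (CCT6A). The adjustment does not allow for the choice of the setting. With the mean over probe sets, 0 of 27 cytosolic members reached an adjusted 0.05 and the median r was -0.22. The relation of HSPA8 to the other cytosolic members therefore depended on the probe set.

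The chaperonin CCT is the ring that folds actin and tubulin. Its 5 subunits measured under a CCT symbol followed each other over the animals. TCP1, a further measured subunit, lay outside the set by its symbol and is not in the CCT pairs below. TCP1 ran from 10.13 in L2 to 10.97 in L4, with H2 (10.84) and H1 (10.69) next below L4. CCT2 read 11.05, 11.38, 11.14, 11.55 and 11.08 in H1 to H5 and 11.29, 10.96, 11.50, 11.55 and 11.23 in L1 to L5. CCT6A read 10.46, 10.63, 10.35, 11.02 and 10.29 in H and 10.48, 10.14, 10.75, 10.96 and 10.30 in L. H4, L4 and L3 were the 3 highest animals of each of these genes and L2 the lowest, so that high and low animals were found in both groups. The ranges were 10.76 to 11.34 for CCT4, 9.88 to 10.34 for CCT7 and 10.64 to 11.40 for CCT8.

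All 10 CCT pairs had an r above 0, from 0.66 to 0.93 with a median of 0.78, and 9 of 10 were at 0.7 or more, against 2.64% of 11169901 pairs of all genes, whose median was 0.03. With the groups centred the median was 0.80, with the GAPDH measure regressed out 0.85, and without L4, the animal that moved it most, 0.70. The count at 0.7 or more was 5 of 10 without L4, and 6 of 10 without H4 or with median centring. The largest was CCT2 with CCT6A (permutation p = 0.0001, adjusted over the 1225 pairs 0.116; rho = 0.90). In the whole family of 1225 pairs 90 passed an unadjusted permutation p of 0.05 and 0 an adjusted one (Pearson). The H minus L differences of the 5 subunits lay between -0.16 (CCT8) and 0.02 (CCT6A).

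Of the 115 pairs of a CCT subunit with another cytosolic member, 12 (10.4%) were at 0.7 or more, from -0.51 to 0.89 with a median of 0.29. Of the 30 pairs with a mitochondrial member 3 (10%) were, all 3 with DNAJA3, and of the 70 pairs with an ER member 0 were. The pairs given here were chosen after their values were seen, and none passed the adjusted threshold. HSPH1, the inducible Hsp110, ran from 8.83 in H5 to 10.23 in H4 and had an r of 0.86 with CCT2 (adjusted p = 0.196) and 0.84 with HSP90AB1 (adjusted p = 0.190), the constitutive Hsp90. DNAJC2, the J protein at the ribosome exit, had an r of 0.89 with CCT6A (adjusted p = 0.190) and DNAJB2 of 0.89 with CCT7 (adjusted p = 0.190). HSPA4 had an r of 0.81 with CCT8 (adjusted p = 0.249). Without the 2 farthest animals these values were 0.79, 0.60, 0.87, 0.88 and 0.59 in this order.

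**Figure D4:**
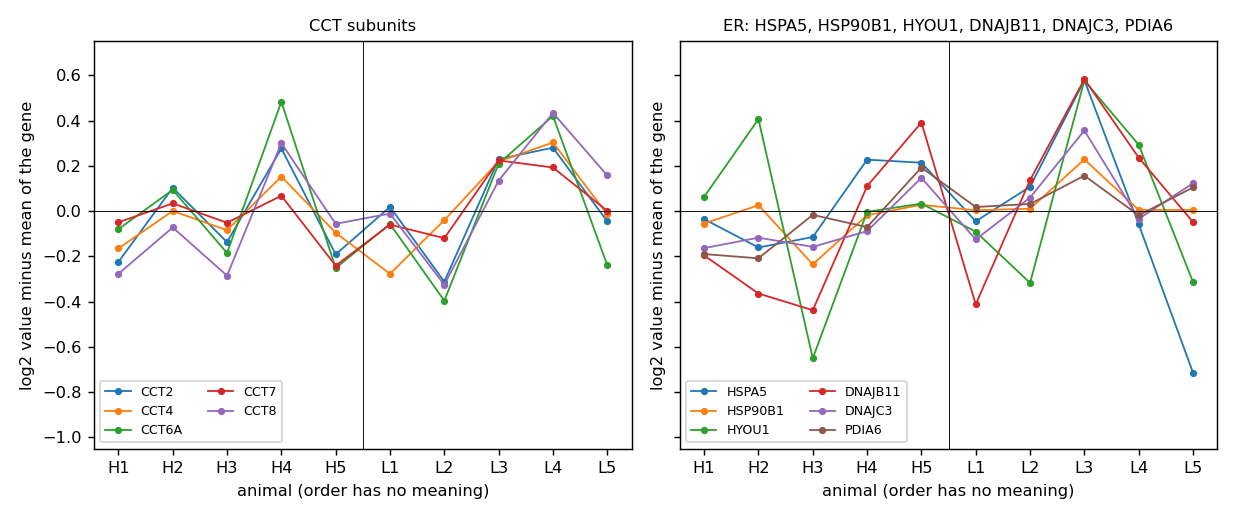
Log2 value minus the mean of the gene over the 10 animals (y axis) for 5 CCT subunits (left) and 6 ER genes (right), by animal (x axis; lines join the values of a gene and the order of animals has no meaning). The CCT lines lie close together with H4, L3 and L4 high, whereas the ER lines shown share a high L3 and spread elsewhere. The 6 ER genes are a selection (HSPA5, HSP90B1, HYOU1, DNAJB11, DNAJC3 and PDIA6), and for PDIA6 the highest animal was H5. L3 was the highest animal for 6 of all 14 ER members, so the shared high L3 is in part a product of the selection.

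In the ER class, the differences between H and L ran from -0.22 (PDIA4) to 0.15 (DNAJB9). As means over probe sets, all 3 disulfide isomerases measured and both lectin chaperones had negative differences, none with an unadjusted p under 0.05 (limma). Of their single probe sets, 1 of PDIA3 gave 0.11 and 1 of CANX 0.06, while the others were negative. Another CANX probe set gave -0.22 with an unadjusted p of 0.0195 (limma, adjusted p = 0.991). PDIA4, or ERp72, read 10.52, 10.25, 10.45, 10.40 and 10.84 in H1 to H5 and 10.42, 10.84, 10.76, 10.89 and 10.65 in L1 to L5. H5 and L1 were the exceptions to a lower H group, and the difference of -0.22 had a standard error of 0.13 (unadjusted p = 0.114, adjusted p = 0.985). With the GAPDH measure as a covariate it was -0.23 with an unadjusted p of 0.0413 (limma).

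The other ER genes with the smallest p were again lower in H, within the spread. DNAJC3, the J protein P58IPK that restrains PERK, read 6.85, 6.89, 6.85, 6.92 and 7.16 in H1 to H5 and 6.88, 7.07, 7.37, 6.98 and 7.13 in L1 to L5 (difference -0.15, standard error 0.10, unadjusted p = 0.175, limma). H5 stood above the other H animals and L3 above all. PDIA6 read 11.70, 11.68, 11.87, 11.82 and 12.08 in H and 11.91, 11.92, 12.05, 11.87 and 12.00 in L (difference -0.12, standard error 0.09, unadjusted p = 0.219, limma). HSP90B1, or GRP94, read 13.43, 13.51, 13.25, 13.46 and 13.51 in H and 13.49, 13.49, 13.71, 13.49 and 13.49 in L (difference -0.10, standard error 0.08, unadjusted p = 0.236, limma). L3 lay apart in HSP90B1 as well, and 4 of the other arrays were within 0.01 of each other.

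HSPA5 (BiP), the Hsp70 of the ER lumen and the usual gauge of its folding load, read 13.64, 13.52, 13.56, 13.91 and 13.89 in H1 to H5 and 13.63, 13.79, 14.26, 13.62 and 12.97 in L1 to L5. Both extremes were L animals, L3 the highest and L5 the lowest, and the means were 13.71 ± 0.18 in H and 13.65 ± 0.46 in L (SD, n = 5, difference 0.05, standard error 0.20, unadjusted p = 0.803, limma). HYOU1, its exchange factor Grp170, read 9.57, 9.92, 8.86, 9.51 and 9.54 in H and 9.42, 9.19, 10.09, 9.80 and 9.20 in L. L3 was again highest, H3 was lowest, and the difference was -0.06 with a standard error of 0.22 (unadjusted p = 0.794, limma). XBP1 read 12.01, 12.45, 12.00, 12.14 and 12.09 in H and 12.25, 11.98, 12.01, 12.06 and 11.82 in L, with H2 highest and a difference of 0.11 (standard error 0.11, unadjusted p = 0.346, limma).

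L3 was the highest animal for 6 of the 14 ER members, for 4 of 28 cytosolic and for 0 of 6 mitochondrial ones, while it was the highest for 19.6% of all genes. JCHAIN, the measured gene of plasma cells, was also highest in L3 (11.37, against 9.11 to 10.51 in the other animals), as was the summed level of the 5 Kupffer cell genes (12.49). Taken singly, CD163 and C1QC were highest in L3, whereas CD14, VSIG4 and C1QA were highest in H3. The part of these cells in the ER values was not tested. XBP1 was not among the highest in L3, and its r with the ER members lay between -0.64 (PDIA3) and 0.44 (HYOU1). L5, the lowest animal for HSPA5, was the highest for HSPA6, and the 2 genes ran against each other (r = -0.79, permutation p = 0.00479, adjusted over the 147 relations 0.535), with an r of -0.48 once L3 and L5 were left out.

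The pairs of ER members had a median r of 0.34, against 0.18 for pairs of cytosolic and -0.01 for pairs of mitochondrial members. Of 91 ER pairs 78 were above 0 and 9 (9.89%) were at 0.7 or more. That share was 7.41% for cytosolic pairs (28 of 378), 6.67% for mitochondrial pairs (1 of 15) and 2.64% for pairs of all genes. When L3 was left out, the ER median fell to 0.12 and the ER count to 5, so both rested in part on this animal. Pairs between the classes had medians of 0.02 (cytosolic with ER), 0.04 (cytosolic with mitochondrial) and -0.03 (ER with mitochondrial). The closest ER pair was DNAJB11 with DNAJC3 (r = 0.83, permutation p = 0.00246, adjusted 0.201), both J proteins of BiP, and r was 0.73 without L3. CALR and CANX, the calreticulin and calnexin genes of glycoprotein folding, had an r of 0.76 (permutation p = 0.00912, adjusted 0.340) and a rho of 0.91, with 0.82 when H1 and L1 were left out. HSP90B1 and HYOU1 had an r of 0.78, but of 0.09 when H3 and L3 were left out.

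**Figure D5:**
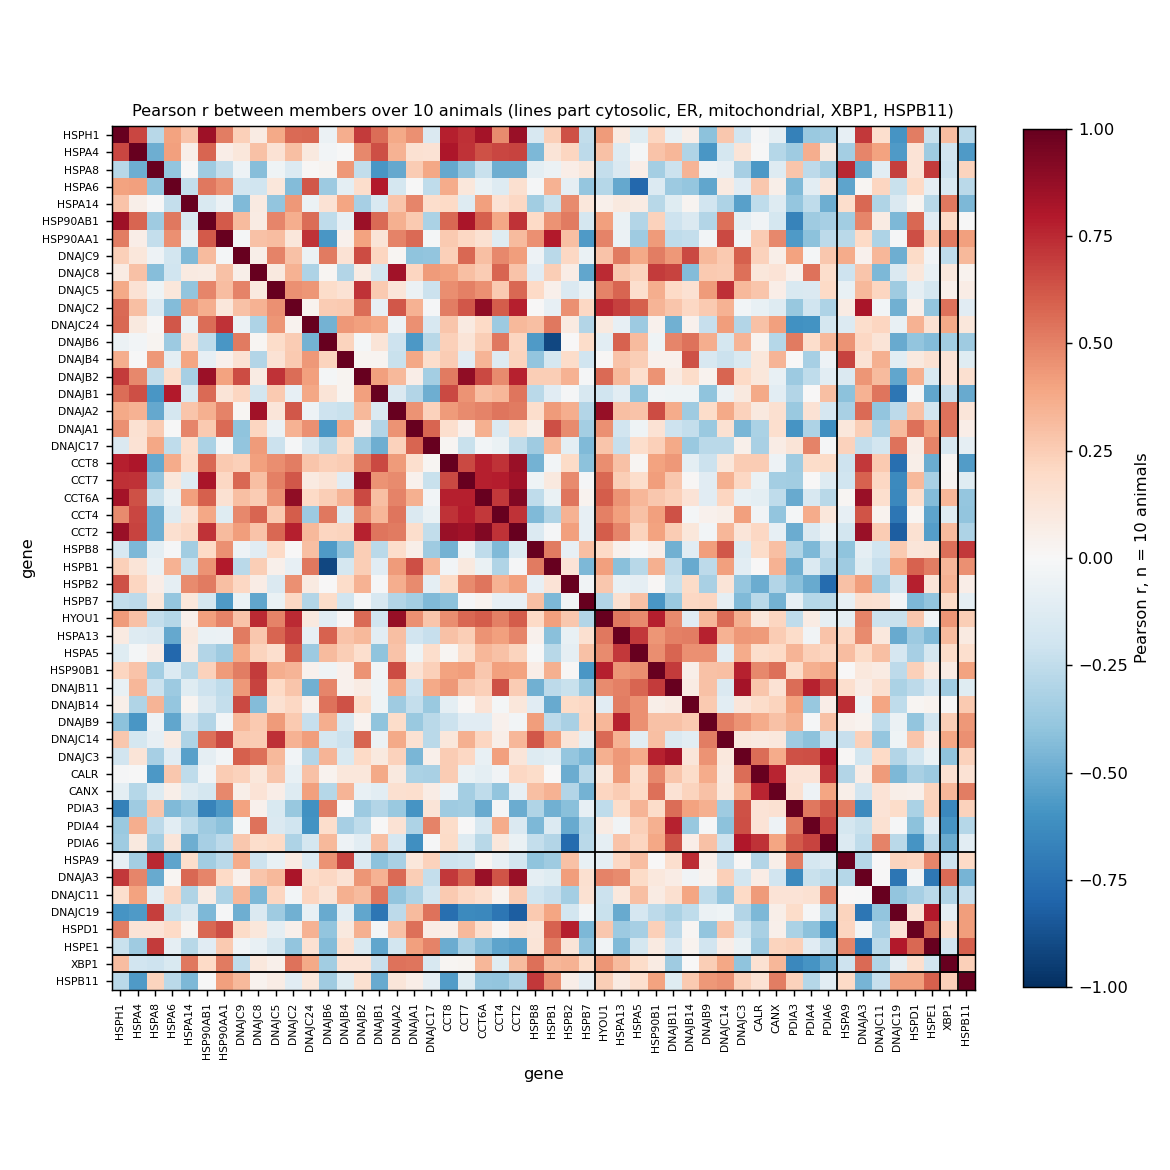
Pearson r over the 10 animals (colour) for every pair of the 50 genes, ordered by class and role on both axes, with lines between the classes. The CCT block is uniformly positive, the ER block mostly positive and the mitochondrial block mixed.

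The mitochondrial members had the smallest median spread, and all 6 differences between H and L were under 0.2 (log2). DNAJC11, of the mitochondrial outer membrane, read 7.53, 7.28, 7.79, 7.84 and 7.59 in H1 to H5 and 8.00, 7.67, 7.90, 7.70 and 7.67 in L1 to L5. H2, H1 and H5 were below all L animals, L1 and L3 were above all H animals, and the difference was -0.18 with a standard error of 0.12 (limma, unadjusted p = 0.160, adjusted p = 0.985). HSPA9, the Hsp70 of the matrix, read 12.19, 11.99, 12.02, 12.26 and 12.08 in H and 11.96, 12.10, 12.08, 11.88 and 12.04 in L, a difference of 0.10 with a standard error of 0.08 (unadjusted p = 0.254, limma). H4 and H1 were above all L animals. Its brightest probe set alone gave -0.02, so the sign rested on the other.

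The chaperonin of the matrix was steady. HSPD1 (Hsp60) read 13.85, 13.88, 13.57, 13.78 and 13.52 in H1 to H5 and 13.74, 13.77, 13.73, 13.69 and 13.84 in L1 to L5, with both extremes in H and a difference of -0.03 (standard error 0.09, unadjusted p = 0.728, limma). HSPE1, the Hsp10 lid and the neighbour of HSPD1 in the Sscrofa11.1 gene order, ran from 13.55 in L4 to 14.16 in H1. The r of the 2 genes was 0.57, and that of HSPD1 with HSPB2 was 0.78, or 0.51 without H3 and H5.

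DNAJC19, the J protein of the import motor, varied more than the other mitochondrial members. It read 11.43, 10.52, 10.48, 10.03 and 10.77 in H and 10.62, 10.81, 10.17, 10.17 and 10.46 in L. H1 was highest and H4 lowest, and the difference was 0.20 with a standard error of 0.24 (unadjusted p = 0.422, limma). It ran against CCT2 (r = -0.82, permutation p = 0.00162, adjusted over the 1225 pairs 0.190; rho = -0.85; r = -0.89 without H1 and H4). It went with HSPE1 (r = 0.80), an r that was 0.50 without H1.

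For each compartment, the constitutive chaperones HSPA8, HSPA5 and HSPD1 were set against all other members. Of these 147 relations 7 passed an unadjusted permutation p of 0.05 and 0 an adjusted one, the smallest adjusted p being 0.535. HSPA5 had an r above 0 with 12 of 13 other ER members (median 0.37), and above 0.7 with HSPA13 alone. Its r with HSPA13 was 0.54 without L3 and 0.43 without L3 and L5. Thus 1 member reached 0.7 with HSPA5, against 2.29% of all genes, 2 with HSPA8 against 1.31%, and 1 with HSPD1 against 0.381%. With the brightest probe set of each gene, a setting added after seeing the data, 7 members reached 0.7 with HSPA8, against 5.61% of all genes. These were DNAJA1, HSPH1, CCT2, CCT6A, DNAJA3, CCT8 and CCT7, while HSPE1 was at -0.40. With the mean over probe sets, the 2 of HSPA8 were HSPA9 (r = 0.75) and HSPE1 (r = 0.70), and the latter became -0.55 without H1 and L4.

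The genes whose pattern over the 10 animals was most like that of each of these chaperones follow, from the mean over the probe sets of a gene. They were USP18 (r = 0.92), NGDN (0.91), ZBP1 (0.90), SLC25A33 (0.88) and DSTN (0.87) for HSPA5. For HSPA8 they were CMTR2 (r = 0.93), INTS3 (0.92), DLD (0.90), FBXL4 (0.89) and CRK (0.88), and with the brightest probe sets MED10 (0.94), TP53INP2 (0.94), the member DNAJA1 (0.93), BIVM (0.92) and TIMM13 (0.91). For HSPD1 they were CHCHD10 (r = 0.89), HAMP (0.88), SNX5 (0.81), USP10 (0.78) and the member HSPB2 (0.78).

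Other genes of protein folding were likewise close between the groups. Of 114 genes in 3 lists, 72 were measured, and 1 passed an unadjusted p of 0.05 (limma), with 0 past an adjusted one. In the list of ER folding and the unfolded protein response, 6 of 34 measured genes were higher and 28 lower in H, with a median difference of -0.10. In the list of cytosolic folding and the heat shock response these counts were 8 and 20 of 28 (median -0.05), and in that of mitochondrial folding and proteolysis 2 and 8 of 10 (median -0.08), beside -0.04 over all genes. The 1 gene was HSBP1, whose product binds and restrains heat shock factor. It read 8.43, 8.72, 8.44, 8.40 and 8.48 in H1 to H5 and 8.64, 8.59, 8.76, 8.71 and 8.66 in L1 to L5, so that all H animals but H2 were below every L animal (difference -0.18, standard error 0.08, unadjusted p = 0.0489, adjusted p = 0.985, limma).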

How the data were processed

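Liver RNA of 10 animals was hybridised to Affymetrix GeneChip Porcine arrays, 1 per animal. The deposited values are log2 intensities, which the authors background-adjusted and normalized with gcrma. The tools listed in the submitters' processing notes are GCRMA, GCOS and RMA, and the sources used here give no version for them. The table holds 24123 probe sets, of which 124 controls were left out, on 10 arrays, and no column lacked a sample. Several dim probe sets share the lowest value of the table (2.19). Others repeat a value of their own over arrays, such as 5.10 for 1 DNAJC14 probe set and 6.12 for HSPB7. Such repeated values understate the differences of these probe sets, also above the limit of 4.

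Gene names came from the platform annotation and were updated by Entrez ID with a name table of Sscrofa11.1 (9961 probe sets, while 108 kept the platform symbol, 198 had several symbols and 13732 none). A gene was the average of its probe sets that reached 4 over the 10 arrays. H and L were compared over all genes and probe sets with limma 3.58.1 in R 4.3.3 (lmFit, eBayes, two-sided, no covariate, Benjamini-Hochberg adjustment). Correlations were computed in Python 3.11.15 (scipy 1.17.1, pandas 2.3.3, numpy 2.4.6; 100000 permutations), exact tests enumerated all splits into 5 and 5, and matplotlib 3.10.9 drew the figures. The tests were checked on simulated data.

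The members, classes, lists and tests were chosen with earlier results of these data known. Every member could be named with its range. Values by animal were given for HSPA5, HSPA8 and HSPD1, for the 4 members of each class with the smallest p, for the 4 with the largest SD, and for XBP1 and HYOU1. Of the other folding genes, those past an unadjusted 0.05 were named, and for each of the 3 chaperones the 5 genes with the highest r. CCT2, CCT6A, TCP1, CRYAB, FOS, JUN and the pairs beyond the 3 chaperones were chosen after their values were seen. Kinship was not modelled. Alternatives were another filter, scaling, probe set rule, prior, array weights, the GAPDH covariate, the replicate block and leaving out each animal.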

Additional observations from a re-analysis of the deposited data

Results flagged for a closer look

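In 100 groups of 5 values (50 genes in H and in L), 10 had a highest or lowest animal far from the others of its group, at a gap above 0.71 of the range; chance flags about 1 in 20 groups. They fell on 9 genes, and 3 of them on L3.

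In 3 ER genes L3 stood this far above the other L animals. DNAJB9, a BiP co-chaperone induced by XBP1, was 10.46 in L3 and 9.97 to 10.06 in the other L animals. HSP90B1 was 13.71 against 13.49, and HSPA13 was 9.58 against 9.08 to 9.20.

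H5 was highest in H for DNAJC3, at 7.16 against 6.85 to 6.92, and for DNAJC5, at 5.91 against 5.89 on each of the others. L4 was highest in L for HSPA4, at 9.14 against 8.71 to 8.83, and lowest for HSPA8, at 8.59 against 8.85 to 8.94. HSP90AB1 was lowest in L2, at 11.64 against 11.93 to 12.01.

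HSPB7 was highest in H3 among the H animals (6.20) and lowest in L5 among the L animals (6.06), where 7 of the 10 arrays shared nearly the same value. DNAJC5 likewise had 5 arrays within 0.01 of a single level.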

How the results depend on the processing

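No member passed an adjusted p of 0.05 (limma) in any of the 19 other settings tried. The number of members at an unadjusted p under 0.05, 0 as reported, was 1 without the filter on dim probe sets (HSPA4), 3 with array weights (HSPA4, HSPA6 and DNAJB1), 1 with the GAPDH covariate (PDIA4), 2 with the exact permutation test, and 0 to 3 when an animal was left out, 3 of them without L2. Over all 4730 genes the count, 125 as reported, was 167 with array weights, 152 with the GAPDH covariate, 141 with the exact test and 281 without L2. The other folding genes, 1 as reported, became 0 with a mean of at least 6, quantile normalization, median centring, the brightest probe set or a trended and robust prior, and 0 to 7 when an animal was left out, 7 of them without L2. Cytosolic members correlated with HSPA8 at an adjusted 0.05 were 4 with the brightest probe set and 0 as reported. Of 947 recomputed member differences 944 kept their direction or stayed within 1 standard error. HSPA8 turned to -0.0061 and HSPA9 to -0.018 with the brightest probe set, and HSPB11 ran from -0.18 (without L4) to 0.11 when an animal was left out; the cause was not tested. The median r of the CCT pairs, tried in settings added after seeing the data, was between 0.70 (without L4) and 0.85 against 0.78.

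Whether the numbers 1 to 5 pair the animals of H and L is not given in the labels. Same-numbered animals had correlations of their deviations from -0.24 to 0.28, and differently numbered ones from -0.32 to 0.40. Such correlations cannot show which animals are sibs. With the replicate block 2 members (HSPA4 and HSPA14) and 0 other folding genes were at an unadjusted p under 0.05, and 140 of all genes against 125. With 5 animals a group, dim and repeated values limit what HSPB7 and DNAJC5 can show.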
